A study of Mus musculus with 6 samples.

Results

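The genes described here are 10 transcription factors of the mouse epidermis, namely Trp63, Tfap2a, Tfap2b, Tfap2c, Ovol1, Grhl3, Klf4, Klf5, Sox11 and Lhx2, taken by symbol from the 28000 genes of the deposited table. All 10 were found, and each was followed in keratinocytes of embryonic skin that were split into suprabasal, placode and basal cells. Dorsolateral and flank skin of 3 to 4 embryos was pooled for each library, and its cells, stained with DAPI for sorting, were profiled by droplet single-cell RNA sequencing of transcript 3′ ends. The 6 libraries comprised 1 labelled LOF and 2 labelled WT, called controls here, at embryonic day (E) 14.5, and 1 LOF and 2 controls at E13.5, all on the CD1 background. LOF embryos carried PDGFRalphaCreER(Lo), a tamoxifen-dependent Cre under the promoter of a receptor of dermal fibroblasts, with beta-catfl/fl, a floxed beta-catenin gene, and mTmG, a reporter that switches from membrane Tomato to membrane GFP after recombination. Mice of this genotype received tamoxifen at E11.5, and the labels do not say whether the controls did, so effects of genotype and drug cannot be told apart. The labels do not say whether the 2 controls of a stage came from separate litters, so p-values measure the spread between these libraries only.

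A stratified epithelium is built from a basal layer that divides and suprabasal layers that differentiate, and hair follicles begin as placodes, thickenings of the basal layer that signal to the dermis below. Trp63 encodes p63, the master regulator of the stratified epithelial lineage, and the AP-2 proteins encoded by Tfap2a, Tfap2b and Tfap2c bind many epidermal promoters. OVOL1, GRHL3, KLF4 and KLF5 act in keratinocyte differentiation and barrier formation, whereas SOX11 and LHX2 are known from early epithelial progenitors and from hair placodes.

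Keratinocytes were cells with at least 10 unique molecular identifiers (UMIs) of Krt5, Krt14, Krt15, Epcam and Perp together. Those with a UMI of Dkk4 or Shh, 2 signals of the placode, were called placode, and the others basal with at most 3 and suprabasal with at least 8 UMIs of Krt1, Krt10 and Krtdap, genes of early differentiation. The placode class was thus taken first, with no limit on Krt1, Krt10 and Krtdap. It held 6 cells high in these suprabasal genes for E14.5 control 1, 9 for E14.5 control 2 and 1 for E14.5 LOF. Every E13.5 library held 0. After filtering, keratinocytes numbered 2581 in E14.5 LOF, 1754 and 1782 in the E14.5 controls, 747 in E13.5 LOF and 1036 and 1057 in the E13.5 controls. Suprabasal cells numbered 667 in E14.5 LOF and 563 and 612 in E14.5 controls, but 33 in E13.5 LOF and 47 and 9 in E13.5 controls. Placode cells numbered 104 in E14.5 LOF, 99 and 154 in E14.5 controls, 19 in E13.5 LOF and 165 and 123 in E13.5 controls. Basal cells numbered 636 to 1593 per library. Levels below are UMIs of the gene per 1000000 UMIs of all cells of a class in a library (CPM), and a class of under 20 cells entered no test.

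Total UMIs per library ranged from 53461986 to 86446575, and median UMIs per keratinocyte from 10049 to 15723. Between 45 and 103 barcodes were shared by any 2 libraries, of which 0 to 10 were keratinocytes. Ctnnb1, the floxed gene, had 198 CPM in E14.5 LOF, 184 and 179.6 CPM in E14.5 controls, and at E13.5 250.4 CPM in LOF and 195 and 182 CPM in controls in dermal cells, but reads from the 3′ end need not cover the deleted exons, so this checks no label. In dermal cells eGFP had 323 CPM in E14.5 LOF, 5.17 and 90.7 CPM in E14.5 controls, and at E13.5 346 CPM in LOF and 2.95 and 122 CPM in controls. Basal keratinocytes held tdTomato at 67.9 CPM in E14.5 LOF, 44.5 and 319 CPM in E14.5 controls, and at E13.5 986 CPM in LOF and 1042 and 811 CPM in controls. Both reporters were thus found in libraries labelled WT, and eGFP was above 90 CPM in replicate 2 of both control groups, so every LOF or control below is a library as labelled.

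Krt5, Krt14, Krt10 and Krtdap are genes of the gates, so their levels describe the gates and are no independent check of the classes. In basal cells Krt5 stood at 476 to 991 CPM and Krt14 at 1200 to 1600 CPM. Suprabasal cells of E14.5 held Krt10 at 4439 CPM in LOF and 4800 and 3089 CPM in controls, whereas those of E13.5 held it at 386 CPM in LOF and 257 and 179 CPM in controls, so that the few E13.5 suprabasal cells passed their gate mainly on Krtdap. Cells with at least 3 UMIs of the periderm markers Krt4, Krt6a, Gabrp and Cldn4, genes of the transient outermost embryonic layer, made up 11.2% of suprabasal cells in E14.5 LOF, 12.79% and 17.3% in E14.5 controls, and at E13.5 54.5% in LOF and 55.3% and 22.2% in controls.

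Across cell types, Trp63, Ovol1, Grhl3 and Klf5 were far higher in keratinocytes than in the other named types. Trp63 had a median over libraries of 204 CPM in keratinocytes and at most 6.46 CPM in any library of dermal, macrophage, endothelial, muscle, Schwann or melanoblast cells. Ovol1, Grhl3 and Klf5 had medians of 16.8, 37.8 and 104 CPM in keratinocytes and of 0.284, 1.21 and 6.02 CPM in dermal cells. Lhx2 was low everywhere, with a median of 0.463 CPM in keratinocytes and 0.274 CPM in dermal cells, because its UMIs lay in few cells.

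The AP-2 genes extended into cells of neural crest origin. Tfap2a had a median of 150.0 CPM in melanoblasts and 26.4 CPM in Schwann cells, against 69.1 CPM in keratinocytes and 0.685 CPM in dermal cells. Tfap2b had 98.8 CPM in melanoblasts and 117 CPM in Schwann cells, against 331 CPM in keratinocytes. Tfap2c had 10.5 CPM in Schwann cells and 0 in melanoblasts, against 22.4 CPM in keratinocytes. Sox11 and Klf4 were found widely. Sox11 had medians of 107 CPM in dermal, 156 CPM in muscle and 271 CPM in melanoblast cells, against 71.1 CPM in keratinocytes, and macrophages were lowest at 11.0 CPM. Klf4 had a median of 149 CPM in dermal cells, against 71.7 CPM in keratinocytes. Free RNA from dermal cells can therefore add UMIs of Sox11 and Klf4 to keratinocytes. Their level in macrophages is given below for comparison, and how much of it is free RNA was not tested.

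**Figure D1:**
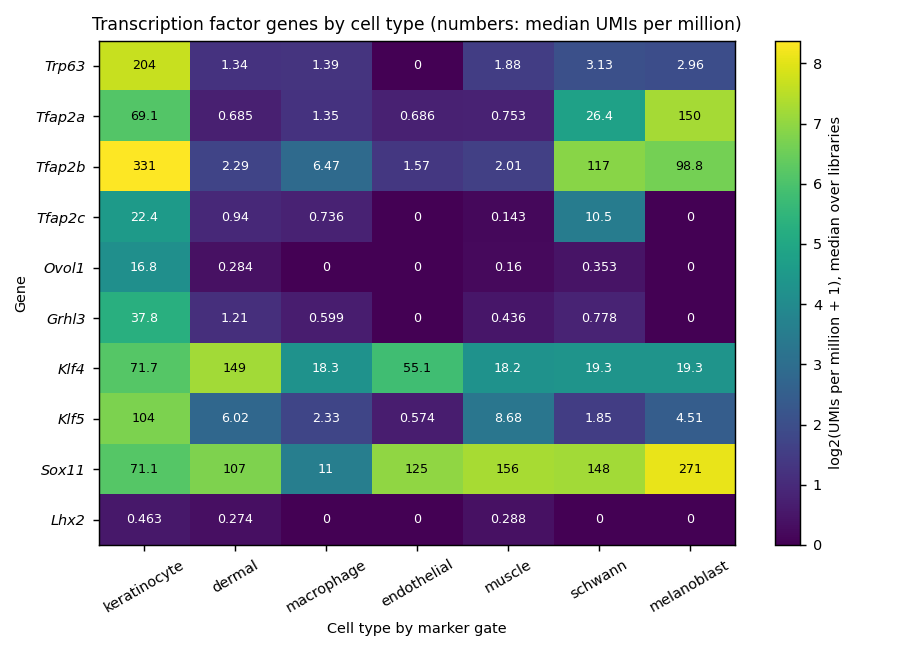
Median level of each gene over libraries (CPM, printed, with colour on a log2 scale) in cells gated by marker lists, with genes in rows and cell types in columns. Trp63, Ovol1 and Grhl3 stand out in keratinocytes, the AP-2 genes also in Schwann cells or melanoblasts, and Sox11 and Klf4 in several types.

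The first comparison asked how the 10 genes differ between layers. In suprabasal against basal cells of the same library, 6 of 9 genes tested rose and 2 fell. The rises were led by Ovol1, a zinc finger repressor, and Grhl3, a grainyhead factor needed for barrier formation, followed by Klf4, Klf5, Tfap2c and Sox11, and the falls were in Trp63 and Tfap2b. Over all 12333 genes tested 52.6% were called, 23.4% higher and 29.2% lower, so a call was common in this comparison and the sizes say more than the counts. The edgeR quasi-likelihood test with the library as a block was used, in the 5 libraries with at least 20 cells of both classes, and Benjamini-Hochberg adjustment ran over all genes tested.

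Trp63 (ENSMUSG00000022510, chr16:25683763-25892102, + strand) had 83.7 CPM in suprabasal cells of E14.5 LOF, 91.7 and 75.8 CPM in those of E14.5 controls, and at E13.5 110.2 CPM in LOF and 94.7 and 89.6 CPM in controls. In basal cells the gene had 252, 262, 206, 214, 228 and 172 CPM in the same order. Every suprabasal value lay below every basal value, and the log2 fold change was -1.40 ± 0.08 (SE, 5 libraries; adjusted p = 2.76e-08). Tfap2b (ENSMUSG00000025927, chr1:19208914-19238576, + strand) likewise had 70.3 CPM in suprabasal cells of E14.5 LOF, 74.9 and 88.1 CPM in E14.5 controls, and at E13.5 138 CPM in LOF and 114 and 149 CPM in controls. In basal cells it had 378, 338, 316, 375, 391 and 482 CPM in the same order. The classes did not overlap, and the log2 fold change of Tfap2b was -1.98 ± 0.12 (adjusted p = 4.32e-07).

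The 3 AP-2 genes, which encode related proteins, did not move together. Tfap2c (ENSMUSG00000028640, chr2:172549593-172558622, + strand) had 39.1 CPM in suprabasal cells of E14.5 LOF, 43.0 and 45.5 CPM in E14.5 controls, and at E13.5 47.2 CPM in LOF and 92.1 and 89.6 CPM in controls. Its basal levels were 13.7 to 19.3 CPM, below all of these, and its log2 fold change was 1.47 ± 0.16 (adjusted p = 1.98e-05). Tfap2a (ENSMUSG00000021359, chr13:40715302-40738376, - strand) ranged from 63.8 to 99.5 CPM in suprabasal and from 58.6 to 71.2 CPM in basal cells. Those ranges overlapped, and the log2 fold change of 0.18 ± 0.08 missed the threshold (adjusted p = 0.0637), although it passed with the E14.5 libraries alone (0.19, adjusted p = 0.0090) and in 2 other alternatives. Under the alternatives tried, its adjusted p ranged from 0.0090 to 0.341.

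Ovol1 (ENSMUSG00000024922, chr19:5549136-5560646, - strand) had 83.3 CPM in suprabasal cells of E14.5 LOF, 86.2 and 94.9 CPM in E14.5 controls, and at E13.5 49.0 CPM in LOF and 70.4 and 79.6 CPM in controls. In basal cells it stayed at 3.96, 2.82, 2.71, 3.85, 4.40 and 2.40 CPM in the same order. With a log2 fold change of 4.46 ± 0.18 (adjusted p = 8.44e-09), Ovol1 had the largest difference among the 9 genes tested here. A UMI of Ovol1 was found in 46.2% of suprabasal cells of E14.5 LOF and 54.0% and 51.8% of those of E14.5 controls, against 3.33%, 3.22% and 1.74% of basal cells. In an expected draw of 3000 UMIs per cell the shares were 19.8%, 20.5% and 22.6% of suprabasal and 1.31%, 0.871% and 0.833% of basal cells.

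Grhl3 (ENSMUSG00000037188, chr4:135541888-135573630, - strand) had 114.6 CPM in suprabasal cells of E14.5 LOF, 113 and 114 CPM in E14.5 controls, and at E13.5 276 CPM in LOF and 171 and 199 CPM in controls. Its basal levels were 9.30, 9.16, 10.6, 21.3, 24.6 and 11.499 CPM in the same order, and the log2 fold change was 3.43 ± 0.12 (adjusted p = 1.41e-09). Unlike Ovol1, Klf4 and Klf5, it was higher in the E13.5 than in the E14.5 suprabasal libraries, which was not tested because 1 E13.5 control held only 9 such cells. Without periderm-marker cells Grhl3 had 112 CPM in E14.5 LOF and 109 and 106 CPM in E14.5 controls. At E13.5 it had 242 CPM in the 15 cells left in LOF and 157 and 188 CPM in the 21 and 7 cells left in controls. The order of the stages was the same in these few cells, and was not tested.

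Klf4 (ENSMUSG00000003032, chr4:55527143-55532466, - strand) had 299 CPM in suprabasal cells of E14.5 LOF, 277 and 276 CPM in E14.5 controls, and at E13.5 90.9 CPM in LOF and 116 and 49.8 CPM in controls. In basal cells it had 49.0, 41.5, 43.9, 19.7, 20.6 and 11.4 CPM in the same order. Both classes were thus higher at E14.5, and the log2 fold change between classes was 2.58 ± 0.09 (adjusted p = 2.59e-10). Klf5 (ENSMUSG00000005148, chr14:99298691-99315036, + strand) had 299 CPM in suprabasal cells of E14.5 LOF, 285 and 272 CPM in E14.5 controls, and at E13.5 194 CPM in LOF and 192 and 229 CPM in controls. Its basal levels ran from 39.2 to 97.6 CPM, and its log2 fold change was 1.86 ± 0.09 (adjusted p = 5.76e-09).

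Sox11 (ENSMUSG00000063632, chr12:27334264-27342574, - strand) had 25.3 CPM in suprabasal cells of E14.5 LOF, 22.6 and 32.4 CPM in E14.5 controls, and at E13.5 205 CPM in LOF and 187 and 209 CPM in controls. In basal cells it had 11.9, 9.84, 14.5, 142, 114 and 139 CPM in the same order. The suprabasal level was above the basal one in every library, with a log2 fold change of 0.91 ± 0.11 (adjusted p = 2.54e-05), while the 2 stages lay far apart in both classes. Lhx2 had 2 UMIs in all suprabasal cells and was too low to test. Its share was 0 of 667 suprabasal cells in E14.5 LOF. With 3 over the number of cells as a rough limit, which is not the exact binomial one, up to 0.450% could hold a UMI. This does not limit the share of cells that express the gene.

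The 6 rises and 2 falls were also called in each of the 14 alternatives for this comparison. Without the cells that hold periderm markers, in both classes, the counts of these genes were again 6 higher and 2 lower, with 7001 genes called in all. That fit had 4 libraries, because E13.5 LOF kept only 15 suprabasal cells. Its only E13.5 library was control 1, with 21 suprabasal cells, so it says little about E13.5. The summed periderm markers had 272 CPM in suprabasal cells of E14.5 LOF, 83.6 and 151 CPM in E14.5 controls, and at E13.5 203 CPM in LOF and 157 CPM in control 1, against 40.5, 31.5, 69.4, 70.4 and 56.0 CPM in basal cells. Of the 4 markers, Krt4 was at 0 in suprabasal cells of both E13.5 controls. Most of the sum at E13.5 was Cldn4, at 135 CPM in LOF and 138 CPM in control 1. In E14.5 LOF Krt4 had 161 CPM and Cldn4 88.3 CPM, and in E14.5 controls Cldn4 had 74.9 and 111 CPM. The sum was thus made up of different markers in different libraries.

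**Figure D2:**
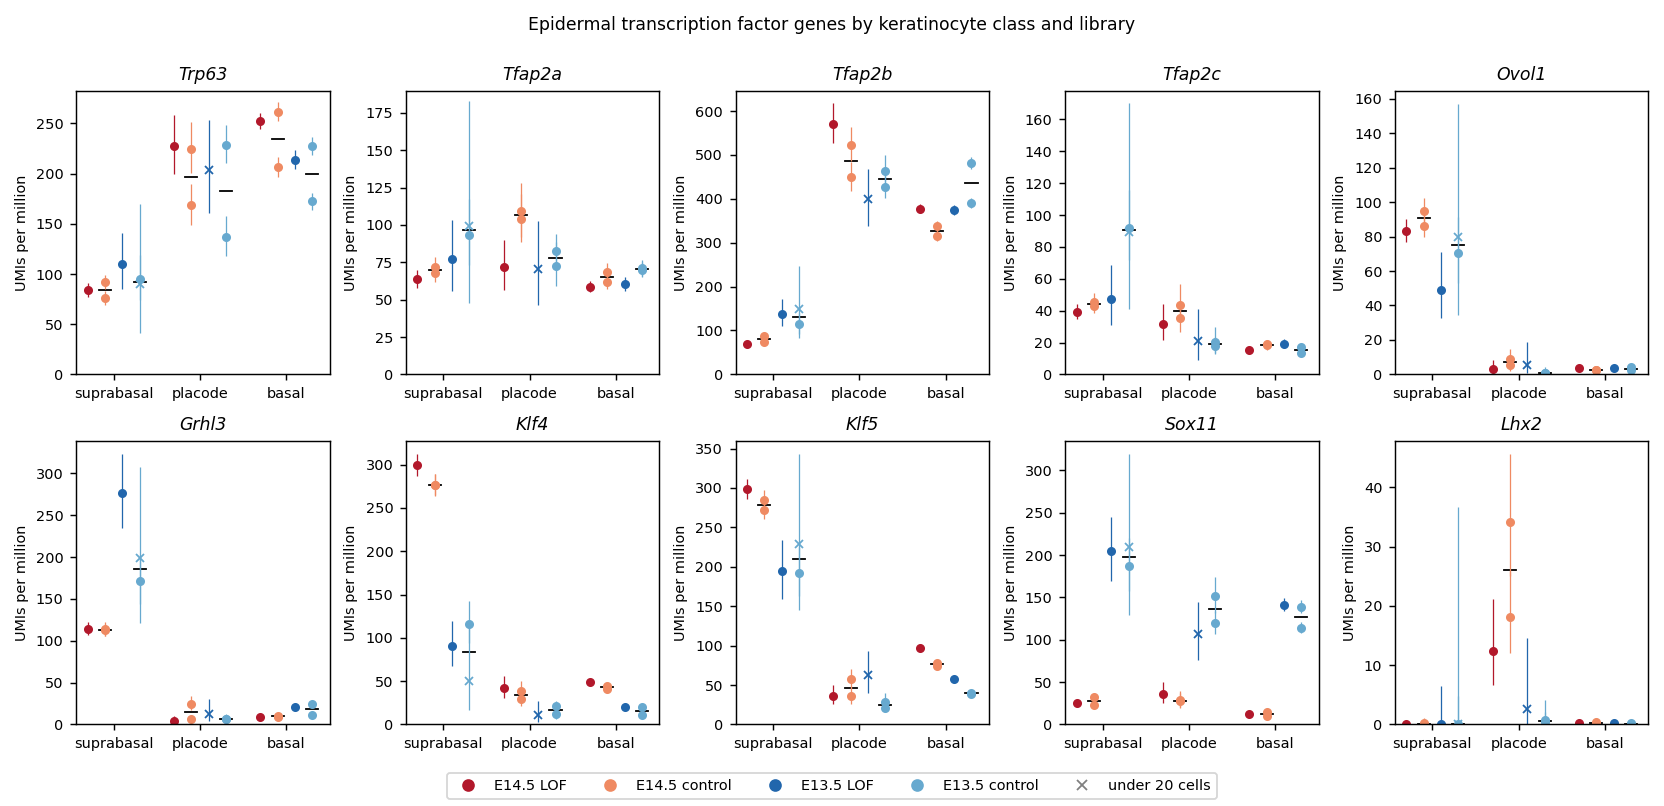
Level of each gene (CPM, with exact 95% Poisson intervals) in suprabasal, placode and basal keratinocytes, 1 point per library and a bar at the mean of 2 controls; crosses mark classes of under 20 cells. Ovol1, Grhl3, Klf4 and Klf5 stand high in suprabasal cells, Lhx2 in E14.5 placode cells, and Sox11 is far lower in every class at E14.5.

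When the E14.5 keratinocytes outside the placode class were ordered by their UMIs of Krt1, Krt10 and Krtdap, the genes changed at different points. With 0 such UMIs, Trp63 had 248 CPM in LOF and 259.8 and 199.5 CPM in controls, and with 4 to 7 it still had 253 CPM in LOF and 242 and 196 CPM in controls. It had 132, 181 and 169.6 CPM with 8 to 31, and 77.5, 79.4 and 57.6 CPM with 32 or more. The level of Trp63 thus differed little between cells with 0 and with 4 to 7 such UMIs.

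Klf5 and Grhl3 were already high with 8 to 31 such UMIs, while Klf4 was highest by far in the last group. Grhl3 had 73.8 CPM in LOF and 97.8 and 64.2 CPM in controls with 8 to 31, and 119.8, 115 and 123 CPM with 32 or more. Klf5 had 259.7 CPM in LOF and 173 and 159.5 CPM in controls with 8 to 31, and 304, 300.2 and 294 CPM with 32 or more. KLF5 is known from proliferating as well as differentiating epithelial cells. Klf4 had 99.7 CPM in LOF and 61.9 and 58.7 CPM in controls with 8 to 31, and 325, 307 and 319 CPM with 32 or more. Ovol1 had 51.7 CPM in LOF and 26.1 and 21.1 CPM in controls with 8 to 31, and 87.3, 94.5 and 109 CPM with 32 or more. Ovol1 in LOF was thus above both controls with 8 to 31 such UMIs and below both with 32 or more, which was not tested. Tfap2b had 236 CPM in LOF and 222 and 241 CPM in controls with 8 to 31, and 49.0, 54.7 and 58.5 CPM with 32 or more. These groups are ranges of a count and not cell types, and deeper cells reach a high count more easily.

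**Figure D3:**
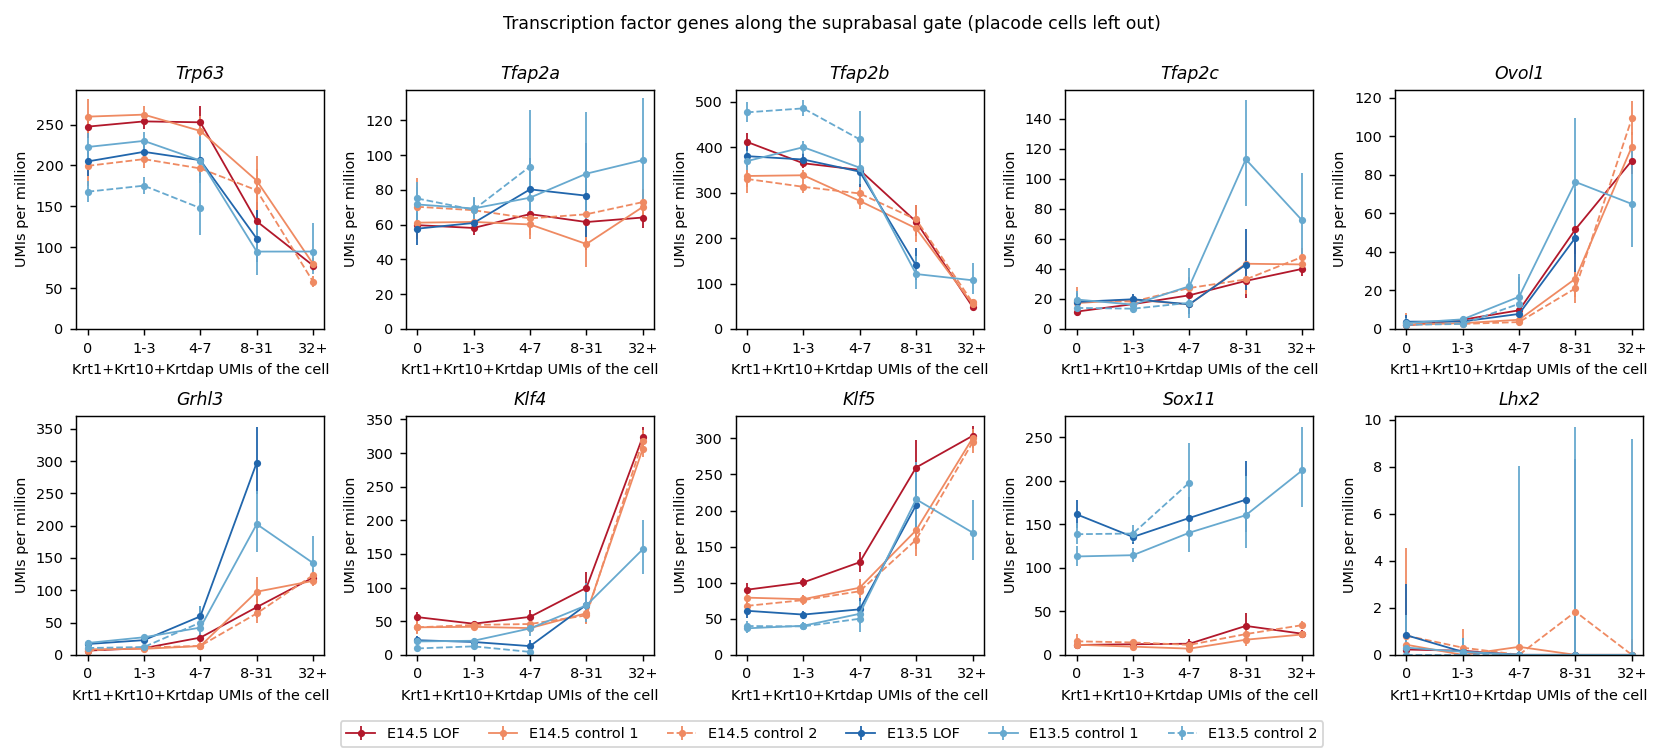
Level of each gene (CPM, with 95% Poisson intervals) against the UMIs of Krt1, Krt10 and Krtdap in the cell, 1 line per library, for groups of at least 20 cells. At E14.5 Trp63 changes little up to 7 such UMIs, and Trp63 and Tfap2b are lowest at 32 or more, where Klf4 and Ovol1 are highest.

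Klf4 and Grhl3 were both high in suprabasal cells, and Tfap2b was low there, so the promoters of these genes are shown. They are from RefSeq on GRCm38.p6 and run from 250 bases before to 50 bases after the annotated start, at chr4:55532426-55532725 on the - strand for Klf4, chr4:135573583-135573882 on the - strand for Grhl3 and chr1:19211804-19212103 on the + strand for Tfap2b. Capitals mark GCCNNNGGC, the AP-2 motif, and CACCC or its reverse complement GGGTG, a box bound by KLF proteins, found by letters on both strands.
Klf4: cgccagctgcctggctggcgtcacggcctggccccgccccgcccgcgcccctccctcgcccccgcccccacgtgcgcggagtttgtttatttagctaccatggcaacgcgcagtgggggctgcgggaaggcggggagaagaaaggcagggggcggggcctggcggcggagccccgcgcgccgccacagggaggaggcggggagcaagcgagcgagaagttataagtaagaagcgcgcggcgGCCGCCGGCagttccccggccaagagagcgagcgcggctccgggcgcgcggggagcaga
Grhl3: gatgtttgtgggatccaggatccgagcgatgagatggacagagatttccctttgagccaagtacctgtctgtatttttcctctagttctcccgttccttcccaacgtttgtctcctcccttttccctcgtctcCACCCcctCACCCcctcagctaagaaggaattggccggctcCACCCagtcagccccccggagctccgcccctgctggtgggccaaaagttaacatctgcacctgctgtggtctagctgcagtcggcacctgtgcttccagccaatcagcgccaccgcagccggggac
Tfap2b: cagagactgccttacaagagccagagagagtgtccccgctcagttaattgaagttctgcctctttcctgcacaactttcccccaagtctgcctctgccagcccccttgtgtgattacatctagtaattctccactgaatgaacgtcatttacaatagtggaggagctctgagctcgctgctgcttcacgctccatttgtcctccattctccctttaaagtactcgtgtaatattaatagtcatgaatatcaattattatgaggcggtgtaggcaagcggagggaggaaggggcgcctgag
Klf4 held 1 AP-2 match and no CACCC box, Grhl3 held 3 CACCC boxes and no AP-2 match, and Tfap2b held neither. The AP-2 motif was found in 16.6% and the CACCC box in 57.5% of all 32851 promoters of this length. No match was found in these 3 windows for AACCGGTT (grainyhead factors, 0.146% of promoters), TGANTCA (AP-1, 7.81%), TAATTA (LIM homeobox factors, 5.29%) or CCGTTA (OVOL factors, 2.76%). No motif marked here overlapped another, and a match is a description of letters, not a site. Promoters were also listed for Lhx2, Sox11 and Tfap2a, and not for Trp63, Tfap2c, Ovol1 and Klf5.

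The second comparison asked which of the genes mark placode cells. Against basal cells of the same library, 4 of the 10 genes rose and 1 fell. Lhx2 (ENSMUSG00000000247, chr2:38339281-38369733, + strand), a LIM homeobox gene of hair follicle progenitors, was found mostly in the placode class at E14.5, the 3 AP-2 genes were somewhat higher there, and Klf5 was lower. Of 11618 genes tested, 4.82% were called, 2.87% higher and 1.95% lower. The test ran in 5 libraries, without E13.5 LOF and its 19 placode cells. Only the basal class was limited in Krt1, Krt10 and Krtdap. Placode Krtdap was 87.7 CPM for E14.5 LOF, 250 CPM for E14.5 control 1 and 431 CPM for E14.5 control 2. Basal Krtdap was 45.1, 40.3 and 73.2 CPM in the same order. For E13.5 controls 1 and 2 it was lower in placode cells, at 1.92 and 0 CPM against 3.48 and 0.732 CPM. The part of differentiating cells in the placode levels was not tested.

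Lhx2 had 12.4 CPM (95% Poisson interval 6.60 to 21.2) in placode cells of E14.5 LOF, 34.1 CPM (25.002 to 45.6) and 18.0 CPM (12.1 to 25.9) in those of E14.5 controls, and 1 UMI in each E13.5 library. In basal cells of every library it had at most 3 UMIs. At E14.5 the level of Lhx2 in placode cells was 111 times (95% counting interval 51.7 to 284) that in basal cells, from 88 UMIs against 7. This interval pools the E14.5 libraries and takes UMIs as independent. The edgeR log2 fold change over 5 libraries was 5.91 ± 0.62 (adjusted p = 7.52e-05). With 1 library left out it ran from 5.04 (without E14.5 control 1) to 6.41 (without E13.5 control 1) and was called each time. Of the keratinocytes with a UMI of Lhx2, 70.0% in E14.5 LOF and 90.5% and 80.0% in E14.5 controls were in the placode class. At E13.5 such cells were few, and 1 of 4 in LOF and 1 of 3 and 1 of 1 in controls were in that class.

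Within the placode class at E14.5, Lhx2 was found more often in cells with Shh. Among cells with UMIs of both genes, a UMI of Lhx2 was found in 13.6% (3 of 22) in LOF and in 38.7% (12 of 31) and 46.4% (13 of 28) in controls. Among cells with Dkk4 alone the shares were 2.82% in LOF and 8.20% and 3.51% in controls. Cells with Shh alone numbered 11 in LOF and 7 and 12 in controls, of which 2, 2 and 3 held Lhx2. The share was thus higher with both signals than with Dkk4 alone in each E14.5 library, and the part of cell depth in this was not tested. In dermal cells, thinned to 3000 UMIs, 0.063% to 0.142% had a UMI of Lhx2, against 3.34% of placode cells in E14.5 LOF and 8.18% and 5.36% in E14.5 controls (6.73%, 19.2% and 12.99% unthinned).

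Tfap2c had 31.5 CPM in placode cells of E14.5 LOF, 43.8 and 35.5 CPM in E14.5 controls and 17.6 and 20.4 CPM in E13.5 controls, and its log2 fold change over basal cells was 0.75 ± 0.15 (adjusted p = 0.0100). Tfap2a had 71.5 CPM in E14.5 LOF, 109 and 104 CPM in E14.5 controls and 82.3 and 72.8 CPM in E13.5 controls, with a log2 fold change of 0.39 ± 0.10 (adjusted p = 0.0304). Tfap2b had 571 CPM in E14.5 LOF, 523 and 450.4 CPM in E14.5 controls and 427 and 463 CPM in E13.5 controls, with a log2 fold change of 0.34 ± 0.08 (adjusted p = 0.0377). All 3 genes were higher in placode than in basal cells in every tested library except Tfap2b in E13.5 control 2, and none of the 3 passed when any 1 of the E14.5 libraries was left out. Without E14.5 LOF, E14.5 control 1 or E14.5 control 2 the adjusted p was 0.0546, 0.0791 and 0.0634 for Tfap2c, 0.0644, 0.171 and 0.151 for Tfap2a and 0.171, 0.194 and 0.141 for Tfap2b.

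Klf5 was the gene that fell, with 36.2 CPM in placode cells of E14.5 LOF, 35.6 and 57.2 CPM in E14.5 controls and 20.7 and 29.1 CPM in E13.5 controls. Each value lay below that of basal cells of the same library, and the log2 fold change was -0.87 ± 0.15 (adjusted p = 0.0110), and the call was lost in 3 alternatives, without E14.5 control 1 (adjusted p = 0.0580), with doublets kept (0.0562) and without the library as a block (0.0898). Trp63 had a log2 fold change of -0.21 ± 0.07 (adjusted p = 0.0875) and Klf4 of -0.21 ± 0.12 (adjusted p = 0.373).

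For Sox11 the ratio of placode to basal cells was unlike at the 2 stages. At E14.5 its level in placode cells was 3.04 times that in basal cells in LOF and 2.94 and 1.89 times in controls, but 1.05 and 1.09 times in E13.5 controls. Over 5 libraries the log2 fold change was 0.60 ± 0.27 and not past the test (adjusted p = 0.313), whereas in the 3 E14.5 libraries alone it was 1.33 ± 0.19 (adjusted p = 3.25e-06). The difference between the stages was not itself tested. Basal Sox11 at E14.5 was 11.9 CPM in LOF and 9.84 and 14.5 CPM in controls, within the 5.53 to 21.5 CPM of macrophages over libraries. Summed dermal markers were also higher in E14.5 placode than in basal cells, as given below. What free RNA adds to these ratios was not tested.

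Ovol1 and Grhl3 were at low levels in placode cells with 1 exception. E14.5 control 2 held Grhl3 at 24.9 CPM, against 3.81 CPM in LOF, 5.94 CPM in control 1 and 6.51 and 6.55 CPM in E13.5 controls. Of its 40 UMIs, 27 were in the 7 placode cells that also held periderm markers, and without those cells the level was 8.87 CPM. Ovol1 had 9 of its 14 UMIs in the same cells. Krt4 stood at 585 CPM in that class, against 0.954 CPM or less in the other 4 tested placode classes, so the log2 fold change of Grhl3 (-0.53 ± 0.53, adjusted p = 0.677) rests on that library. Without it, Grhl3 was called lower (-1.31, adjusted p = 0.0136).

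The summed markers of dermal cells were higher in placode than in basal cells, mainly through Dcn. Their part in these results was tested only by removing cells. The sum of 6 dermal markers (Col1a1, Col1a2, Col3a1, Pdgfra, Lum and Dcn) was 1276 CPM in placode cells of E14.5 LOF, 816 and 857 CPM in E14.5 controls and 386 and 384 CPM in E13.5 controls, against 427, 424, 587, 358 and 351 CPM in basal cells. Most of that sum was Dcn, at 913 CPM in placode cells of E14.5 LOF and 692 and 577 CPM in those of E14.5 controls. In basal cells Dcn had 317, 290.2 and 324 CPM in the same order. Col1a1 had 108, 43.1 and 87.7 CPM in placode cells, against 33.1, 39.6 and 76.8 CPM in basal cells of these libraries. Lum had 27.7, 10.4 and 45.4 CPM in placode cells, against 8.73, 13.3 and 53.6 CPM in basal cells. Pdgfra was at 0 in placode cells of both E14.5 controls and of E13.5 control 2. Without the placode cells whose dermal UMIs reached their keratinocyte UMIs, 4 genes were again called higher and 1 lower, and Lhx2 had a log2 fold change of 5.78 (adjusted p = 5.11e-05).

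**Figure D4:**
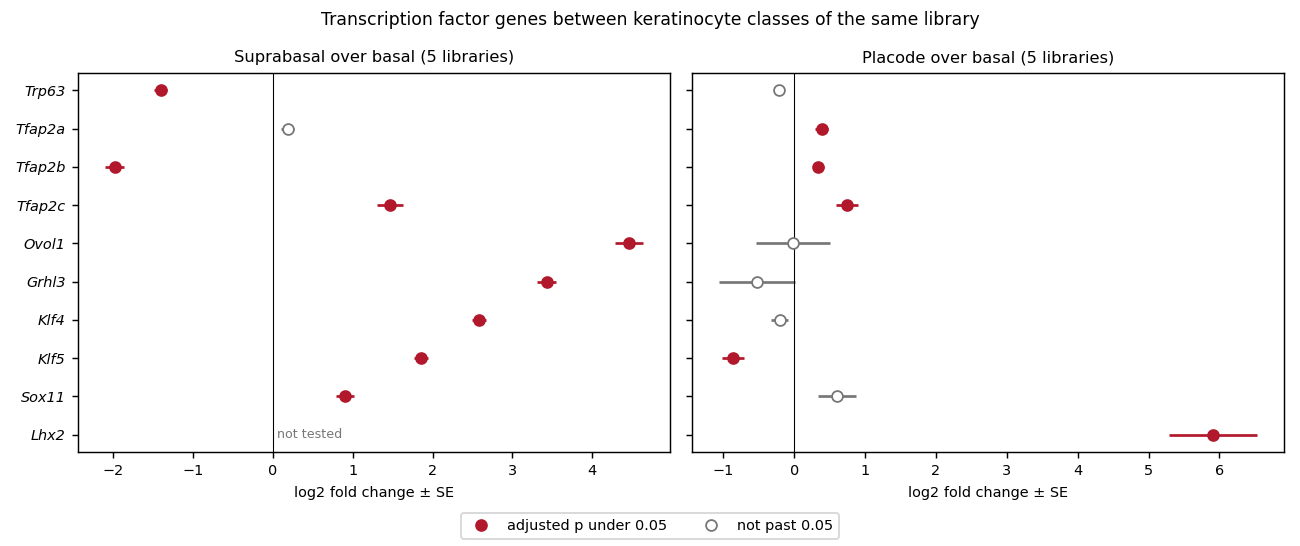
Log2 fold change ± SE of each gene in suprabasal over basal (left) and placode over basal cells (right), from the edgeR fit over 5 libraries; filled points passed an adjusted p of 0.05. The widest gap on the left is that of Ovol1, at 4.46, and on the right that of Lhx2, at 5.91.

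The third comparison asked what changed between E14.5 and E13.5 in the controls. In basal cells Sox11 at E14.5 was 0.102 times as high as at E13.5, while Klf4 and Klf5 were higher, yet none of the 9 genes tested passed the edgeR test without a block. Of 11865 genes, 3 were called (0.0253%), 1320 had an unadjusted p under 0.05, and DESeq2 called 242. DESeq2 called Sox11, Klf4 and Klf5 among these 9 genes.

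Sox11, a SoxC factor of progenitor cells, had 9.84 and 14.5 CPM in basal cells of E14.5 controls, against 114 and 139 CPM in E13.5 controls. The groups were far apart, with a log2 fold change of -3.30 ± 0.32 (adjusted p = 0.0727), and the gene passed when any 1 of the 4 libraries was left out, where the stage left with 1 library is assumed to vary like the other. A UMI of Sox11 was found in 10.4% and 10.6% of basal cells at E14.5, against 70.4% and 66.9% at E13.5, or 2.85% and 4.17% against 27.8% and 31.98% at 3000 UMIs per cell. Macrophages of the same libraries had 8.08 and 17.2 CPM at E14.5 and 21.5 and 8.15 CPM at E13.5, so the E14.5 basal level was near that of macrophages. In dermal cells Sox11 had 60.3 and 59.5 CPM at E14.5, against 143 and 149 CPM at E13.5.

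Klf4 had 41.5 and 43.9 CPM in basal cells of E14.5 controls, against 20.6 and 11.4 CPM in E13.5 controls, a log2 fold change of 1.49 ± 0.35 (adjusted p = 0.213). Klf5 had 77.5 and 74.6 CPM at E14.5, against 39.2 and 39.6 CPM at E13.5, a log2 fold change of 1.02 ± 0.21 (adjusted p = 0.168). The stages did not overlap for these genes, nor for Sox11, Tfap2a, Tfap2b, Tfap2c and Grhl3, and non-overlap was not counted over all genes. Klf5 passed without E14.5 control 1 (1.08, adjusted p = 0.0398) and without E14.5 control 2 (0.99, adjusted p = 0.0149), on the same assumption, but not without either E13.5 control. With 1 library left out, Klf4 did not pass (adjusted p between 0.0724 and 0.894). In macrophages Klf4 had 29.2 and 16.5 CPM at E14.5, against 11.1 and 6.01 CPM at E13.5, and thus moved the same way. Whether those UMIs are free RNA or the macrophages' own was not tested.

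The other genes differed less between the stages in basal cells. Trp63 had 262 and 206 CPM at E14.5, against 228 and 172 CPM at E13.5 (log2 fold change 0.30 ± 0.21, adjusted p = 0.584), and the values of the stages overlapped. Tfap2b had 338 and 316 CPM at E14.5, against 391 and 482 CPM at E13.5 (-0.34 ± 0.20, adjusted p = 0.523). Tfap2a, Tfap2c and Ovol1 had log2 fold changes of -0.04, 0.35 and -0.23, with adjusted p between 0.598 and 0.951.

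Grhl3 in the basal gate was high in cells with periderm markers. It had 9.16 and 10.6 CPM in E14.5 controls, against 24.6 and 11.499 CPM in E13.5 controls (log2 fold change -0.79 ± 0.42, adjusted p = 0.498), and -0.10 without such cells. With 1 library left out the fold change ran from -1.21 (without E13.5 control 2) to -0.15 (without E13.5 control 1). Basal-gated cells that held those markers had Grhl3 at 142 CPM in E14.5 LOF, 99.0 and 51.1 CPM in E14.5 controls, and at E13.5 118 CPM in LOF and 189 and 158 CPM in controls. The other basal cells had 8.77, 8.69, 9.85, 10.4, 12.1 and 8.73 CPM in the same order. Those cells made up 0.439% of basal cells in E14.5 LOF, 0.554% and 1.62% in E14.5 controls, and at E13.5 9.43% in LOF and 6.79% and 2.03% in controls. Ovol1 showed the same split, with 24.5 to 126 CPM in basal-gated cells with periderm markers and 1.28 to 3.47 CPM in the others.

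In placode cells 8 of the 10 genes could be tested between the stages, and Lhx2 rose while Sox11 fell, against 1.62% of 8689 genes called, 1.31% higher and 0.311% lower. Lhx2 was at 34.1 and 18.0 CPM in E14.5 controls, against 1 UMI in each E13.5 control. Its edgeR log2 fold change was 5.51 ± 0.66 (adjusted p = 0.0108). The ratio of pooled UMIs was 50.6 (95% counting interval 13.5 to 425, from 75 UMIs against 2). That interval takes UMIs as independent, although 32 UMIs lay in 12 cells with both Dkk4 and Shh in E14.5 control 1. Sox11 was at 29.0 and 27.4 CPM at E14.5, against 120.3 and 152 CPM at E13.5, a log2 fold change of -2.23 ± 0.29 (adjusted p = 0.0114). Both calls held in all 7 alternatives, of which those with 1 library left out assume that a lone library varies like the other stage. Shh, one of the gate genes, had 42.3 and 31.7 CPM in the placode class at E14.5, against 0.383 and 0.728 CPM at E13.5, so the class was chosen almost wholly on Dkk4 at E13.5. Krtdap likewise had 250 and 431 CPM in the placode class of the E14.5 controls, against 1.92 and 0 CPM at E13.5. What differentiating cells add to the stage differences in this class was not tested. Tfap2c (1.10 ± 0.35, adjusted p = 0.239), Klf4 (1.10 ± 0.43, adjusted p = 0.341) and Klf5 (0.98 ± 0.40, adjusted p = 0.358) were not past the test. Klf4 and Klf5 passed without E14.5 control 1 (adjusted p = 0.00422 and 0.000135), and Tfap2c without E14.5 control 2 (adjusted p = 0.0117).

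The fourth comparison asked whether keratinocytes differ where beta-catenin was floxed in dermal cells. In basal cells no gene was called among 12203 tested (0%), 185 had an unadjusted p under 0.05, and DESeq2 also called 0. Ctnnb1 itself stood at 288 CPM in basal cells of E14.5 LOF against 329 and 342 CPM in controls, and at E13.5 at 276 CPM in LOF against 448 and 371 CPM in controls, below both controls at both stages. Its part in the values that follow was not tested. Klf5 alone of the 10 genes was above both controls at both stages, at 97.6 CPM in E14.5 LOF against 77.5 and 74.6 CPM in E14.5 controls and 57.1 CPM in E13.5 LOF against 39.2 and 39.6 CPM in E13.5 controls. Its log2 fold change was 0.44 ± 0.14 (unadjusted p = 0.0173, adjusted p = 0.993), higher in 2 of 2 LOF libraries. How many of all genes were above both controls at both stages was not counted.

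Ovol1 had 3.96 CPM in E14.5 LOF against 2.82 and 2.71 CPM in controls, but 3.85 CPM in E13.5 LOF against 4.40 and 2.40 CPM in controls. Trp63 had 252 CPM in E14.5 LOF against 262 and 206 CPM in controls, and 214 CPM in E13.5 LOF against 228 and 172 CPM in controls, between the controls at both stages. Tfap2a was below both controls at both stages (58.6 CPM at E14.5 and 60.2 CPM at E13.5), with a log2 fold change of -0.20 ± 0.15 (adjusted p = 0.993). At each stage 4 of the 10 genes were above both controls, 2 below both and 4 between them. These positions were not counted over all genes, so they are not read as a difference between genotypes. With each library left out in turn, replicate 2 of the controls included, again 0 genes were called.

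In placode and suprabasal cells the genotypes were not tested, because E13.5 LOF held 19 placode cells and E13.5 control 2 held 9 suprabasal cells. In E14.5 placode cells Lhx2 had 12.4 CPM in LOF against 34.1 and 18.0 CPM in controls, 0.488 times their pooled level (95% counting interval 0.249 to 0.887), which covers counting error only. Tfap2a had 71.5 CPM in E14.5 LOF against 109 and 104 CPM in controls in the same class. In suprabasal cells of E14.5, at the levels given above, Grhl3, Klf4 and Klf5 in LOF were above both controls. Ovol1, Tfap2a, Tfap2b and Tfap2c were below both, and Trp63 and Sox11 lay between them. Here too, the positions were not counted over all genes.

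**Figure D5:**
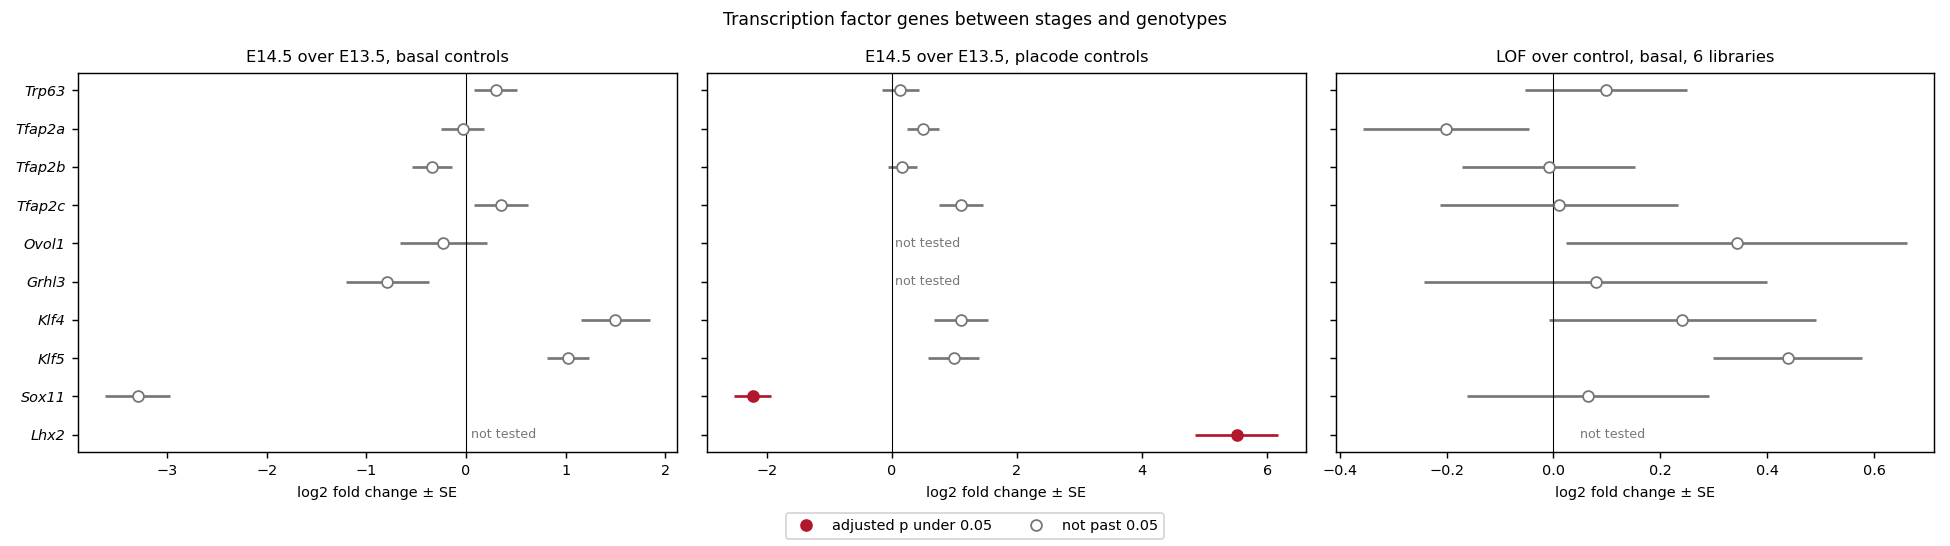
Log2 fold change ± SE of each gene at E14.5 over E13.5 in basal and in placode cells of the 4 controls, and in LOF over control basal cells of all 6 libraries; filled points passed an adjusted p of 0.05. Sox11 lies at -3.30 and -2.23 in the stage panels and Lhx2 at 5.51 in placode cells, while the LOF panel spans less than 1 unit.

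Other epidermal regulators and genes known as p63 targets or partners in adhesion were set beside these 10 genes. Of 40 other regulators 36 were tested in suprabasal against basal cells, and 15 rose and 16 fell, with a median log2 fold change of 0.37 against -0.06 over all genes. Of all genes tested 23.4% were called higher and 29.2% lower. The rises with the smallest adjusted p were Dlx5 (5.48), a homeobox gene, Grhl1 (4.67), a relative of Grhl3, and Zfp750 (4.25), a zinc finger activator of differentiation. The falls with the smallest adjusted p were Nfib (-1.57), Lef1 (-3.62), a partner of beta-catenin, and Sox12 (-2.09), a relative of Sox11. All 18 genes of the p63 list were called, against 52.6% of all genes. The 6 rises were led by the desmosomal or differentiation genes Dsc3 (4.37), Sfn (2.44) and Dsp (1.90). The 12 falls (median -1.85 over the list) were led by the growth factor receptor Fgfr2 (-1.96) and the hemidesmosomal genes Dst (-2.47) and Itgb4 (-2.15).

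In placode against basal cells 4 of 35 other regulators rose, among them Lef1 (0.72), Sox21 (1.72) and Runx1 (1.87), and 2 fell, among them Sox12 (-0.47), with a median of 0.10 against -0.02 over all genes. Of all genes tested 2.87% were called higher and 1.95% lower. Of the 18 genes of the p63 list 4 fell and 0 rose, the falls led by Itgb4 (-0.90), Col17a1 (-0.46) and Jag2 (-0.94). Between the stages in placode cells Trps1 (2.90) and Klf6 (2.11) of 27 other regulators and Col17a1 (2.39) of 17 genes of the p63 list were called higher and none lower. In that comparison 1.31% of all genes were called higher and 0.311% lower. Between the stages and genotypes in basal cells 0 of 34 other regulators and 0 of 18 genes of the p63 list passed. Their unadjusted edgeR p was under 0.05 for 11 and 13 genes between stages, against 1320 of all 11865 genes. Between genotypes it was so for 1 and 2 genes, against 185 of all 12203. The median log2 fold changes of the 2 lists were 0.32 and 0.99 between stages, against 0.03 over all genes. Between genotypes they were 0.10 and 0.25, also against 0.03.

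The genes whose levels were most like those of each factor were sought over 16 sums, 1 for each class and library of at least 20 cells, which share libraries and classes. Tfap2b was nearest to Kremen2 (Pearson r of log2 levels 0.98), a Dkk receptor, and Cdh3 (0.98), which encodes P-cadherin, and Trp63 to Gsr (0.97) and Glud1 (0.96). Klf4 was nearest to Aqp3 (0.98), a water and glycerol channel, and Dynlt3 (0.97), Klf5 to Psat1 and H19 (0.97 each), and Ovol1 to S100a16 and Mgst1 (0.99 each). Grhl3 was nearest to Gm16136 (0.99) and Rhov (0.98), Sox11 to Txnl4a (0.96), Tfap2c to Smarcd2 (0.92) and Capg (0.90), and Tfap2a, the least matched, to Gfod2 (0.79) and Mmd (0.78). Among the 10 genes themselves Klf4 and Klf5 (0.93), Ovol1 and Grhl3 (0.93) and Ovol1 and Klf5 (0.93) were most alike, and Tfap2b and Ovol1 (-0.96) most opposed.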

How the data were processed

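The deposited matrices give, for every gene in every barcode, a raw count of UMIs, made by the authors with Cell Ranger, and the submitters' processing notes also name Seurat and the builds mm10 and GRCm38, with no versions given. The kit reads transcript 3′ ends, per the labels' protocols. A barcode was kept from 1000 UMIs and 500 genes upward if no more than 10% of its UMIs were mitochondrial. Cells scored as doublets against simulated pairs (0.8% per 1000 cells) were left out, which removed 4.68% to 7.14% per library. Total UMIs were 53461986 to 86446575 per library. Poisson intervals follow from the UMIs of the gene and of all cells of the class. Exact binomial intervals follow from the number of cells in the class. Both cover counting error only.

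UMIs were summed per class and library where a class had at least 20 cells. The sums were tested with edgeR 4.0.16 (R 4.3.3; TMM scaling, filterByExpr, robust quasi-likelihood fit, Benjamini-Hochberg adjustment, threshold 0.05). Classes were compared with the library as a block, stages in the 4 controls, and genotypes over the 6 libraries in a model that also held the stage. The same steps were tested on simulated data. DESeq2 1.42.0, other scalings, filters and gates, doublets kept and libraries left out were alternatives. Leaving out periderm-marker cells from both classes, and placode cells high in dermal markers, were chosen after seeing the data.

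The members and lists were chosen with earlier results of these data known. Named genes were the 10 members, up to 3 called rises and falls per comparison from each of 2 lists by adjusted p, and the 2 genes most correlated with each member at a mean of at least 10 CPM. A few genes that this rule names are not reported here. No label gives a batch. Promoter sequences are from RefSeq on GRCm38.p6, with 6 of 10 members matched, and gene positions from GENCODE on GRCm38.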

Additional observations from a re-analysis of the deposited data

Results flagged for a closer look

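The placode level of Klf4 was below the basal one in the 3 E14.5 libraries and close to it in both E13.5 controls. It was 0.856 times in E14.5 LOF and 0.716 and 0.893 times in E14.5 controls, and 1.02 times in both E13.5 controls. The mean log2 ratio at E14.5 minus that at E13.5 was -0.312, and the difference was not tested.

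Genotype differences in basal cells changed sign between the stages for 2 AP-2 genes. Tfap2b had 378 CPM in E14.5 LOF against 338 and 316 CPM in controls, and 375 CPM in E13.5 LOF against 391 and 482 CPM in controls, so that the log2 difference at E14.5 minus that at E13.5 was 0.421. Tfap2c had 15.1 CPM in E14.5 LOF against 19.1 and 18.3 CPM in controls, and 19.3 CPM in E13.5 LOF against 17.2 and 13.7 CPM in controls, and its log2 difference at E14.5 minus that at E13.5 was -0.601. Neither difference between stages was tested, and each LOF group is 1 library.

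The recombination reporter eGFP was found in basal keratinocytes, outside the main measurement, at 3.205 CPM in E14.5 LOF against 1.80 and 0.903 CPM in E14.5 controls, and at 4.245 CPM in E13.5 LOF against 1.56 and 1.78 CPM in E13.5 controls.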

How the results depend on the processing

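Of the fold changes of the 10 genes under settings other than a left-out library, 306 kept direction and side of the threshold, 24 became called, 5 lost the call and 23 changed sign, all of the last from values that were not called. Between stages in basal cells 3 genes were called, against 242 with DESeq2, 465 with no low-count filter, 494 with the replicate block, 6 without periderm-marker cells and 1206 with an assumed batch of 3 levels. Of the 10 genes 0 were called, against 3, 3, 3, 1 and 5 in the same order. That batch was assumed from replicate number and stage, with replicate 2 of both control groups as 1 level, and was fitted over all 6 libraries. With that batch term the stage effect rests on replicate 2 of the controls. Same-numbered controls deviated together (r = 0.359 over 11865 genes), but there are 2 pairs and the labels do not tie same-numbered libraries, so the block is an alternative only. Between stages in placode cells 141 genes were called, against 566 with no filter and 791 with the replicate block. Between genotypes 0 were called, against 10 with the assumed batch. In suprabasal cells 6491 were called, against 3734 with no replicate block. In placode against basal cells 560 were called, against 972 with no filter, 100 with no replicate block and 2026 in the E14.5 libraries alone, and of the 10 genes 5, against 1 with no replicate block, which was Lhx2. The cause of these differences was not tested.

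With 1 library left out, counts ran from 88 to 2249 genes (1 to 2 of the 10) between stages in basal cells, 113 to 2470 (2 to 5) between stages in placode cells, 4617 to 6814 (8 to 9) in suprabasal and 180 to 839 (1 to 6) in placode against basal cells. The highest stage counts were without E14.5 control 2, and the lowest placode count without E14.5 control 1. The log2 fold changes that changed sign ran from -0.19 to 0.12 for Tfap2a, -0.56 to 0.26 for Ovol1 (stages, basal), -0.21 to 0.52 for Trp63 (stages, placode), -0.22 to 0.18 for Tfap2b, -0.33 to 0.32 for Tfap2c, -0.15 to 0.33 for Grhl3, -0.0581 to 0.23 for Sox11 (genotypes) and -0.72 to 0.50 for Ovol1 (placode against basal).

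Other sign changes between stages were Grhl3 at 0.0494, Tfap2a at 0.117 and Ovol1 at 0.3406 with the assumed batch, Tfap2a at 0.0315 with doublets kept and 0.0002 at a gate of 20 UMIs, and Ovol1 at 0.3034 without periderm-marker cells. Between genotypes Tfap2b was at 0.0091 with no filter, 0.0005 with gates per 10000 UMIs, 0.0104 at a gate of 20 UMIs, 0.0864 with the batch and 0.0027 without periderm-marker cells. Tfap2c was at -0.014 with DESeq2 size factors, -0.0149 with DESeq2, -0.0258 with doublets kept, -0.0337 with gates per 10000 UMIs and -0.0556 with the batch. Grhl3 was at -0.0739 with the batch and -0.0473 without periderm-marker cells, and Trp63 at -0.0358 with the batch. In placode against basal cells Grhl3 was at 0.2429 and Ovol1 at 0.853 in the E14.5 libraries alone, and Ovol1 at 0.0034 with DESeq2 size factors and 0.0407 without cells high in dermal markers.

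Lhx2 was limited by its few UMIs. The E13.5 suprabasal and E13.5 LOF placode classes and the basal cells with periderm markers were limited by few cells. Stage and genotype effects in suprabasal, genotype effects in placode and periderm-marker against other basal cells were therefore not run. Thinning to 3000 UMIs moved 142 of 160 shares of cells. Each genotype fit has 1 LOF library per stage.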
